A study of Mus musculus with 6 samples.

Results

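The heat shock and unfolded protein response genes described here are 40 chaperones, proteases, sensors and stress-response genes named from textbook knowledge of protein folding, of which 38 were measured among 18193 genes on the array. They fall into a cytosolic branch (12 of 14 measured), a mitochondrial branch (5 of 5) and an endoplasmic reticulum branch (21 of 21). Hsp90ab1, the constitutive cytosolic HSP90, and Hsf1, the transcription factor of the heat shock response, were not analysed here, as the annotation used gave no probe set to either. Each measured gene was represented by the probe set, among those annotated to that gene only, with the highest mean over all arrays.

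The RNA came from inguinal white adipose tissue, the subcutaneous fat of the groin, of male mice, 3 of them wild type (WT) and 3 Naa10-KO, each on its own array. Naa10 catalyses the acetylation of the N terminus of many proteins as they leave the ribosome. Mice of both genotypes were fed from 6 weeks of age, and for 15 weeks, a diet in which fat supplied 60% of the calories, and all spent 4 h at 4 °C before the tissue was taken. No lean-diet or warm group was analysed here, so the comparison is of genotype within cold-exposed mice on the fat diet. The series title poses the question of Naa10 in thermogenesis by beige adipocytes, and protein folding genes are not named in it. The labels do not state the allele, or whether Naa10 was deleted in the whole body or in 1 tissue, and the targeted transcript was not checked here.

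Cells keep their proteins folded with chaperones in each compartment. In the cytosol, unfolded protein frees the factor HSF1, which binds heat shock elements and raises HSP70, HSP90 and their co-chaperones. In the endoplasmic reticulum, the sensors IRE1α (Ern1), ATF6 and PERK raise folding enzymes and degradation factors through XBP1, ATF6 and ATF4, and ATF4 also answers amino acid shortage and mitochondrial stress. Adipocytes secrete much protein and remodel their mitochondria in the cold, and both compartments have their own chaperones and proteases.

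Short DNA elements known for these factors were looked up first, since the factors of each branch are known to act through them. They were searched on both strands in RefSeq promoter windows of GRCm38.p6 from 250 bases before to 50 bases after each start, in which 34 of the 40 genes had a window. The heat shock element (GAA and TTC in alternation, 3 units in all, with 2 free bases between units) was found in 3 of the 34 genes, Hspd1, Hspe1 and Hsph1, and in 0.603% of all 32851 windows. The endoplasmic reticulum stress element (CCAAT, 9 free bases, CCACG) was found in 6 genes, Hspa5, Hsp90b1, Calr, Canx, Pdia6 and Dnajc3, and in 0.119% of windows. Its shorter form, element II (ATTGG, 1 free base, CCACG), was found in Herpud1 and in 0.0365% of windows. The amino acid response element read by ATF4 (TGATGNAA) was found in Chac1, Asns, Trib3 and Herpud1 and in 3.97% of windows. The core TGACGTGG was found in 0 of the 34 genes and in 0.676% of windows. The Hsph1 and Trib3 matches lie after the start. Percentages count windows, of which a gene can have several. A match describes these letters in this window and is no measurement of binding. Absence of a match does not show that a gene lacks the element. The following matches, printed 5′ to 3′ along the gene with the element in capitals, belong to genes that the values below turn on, and all lie before the RefSeq start of the gene named. For Hspe1 and Hspd1, which start close together on opposite strands, 2 overlapping heat shock elements form a run of 18 bases that lies in a window of each gene.
Hspe1 and Hspd1, heat shock elements, chr1:55088053-55088082, + strand: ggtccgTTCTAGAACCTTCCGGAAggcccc
Hspa5, endoplasmic reticulum stress element, chr2:34772005-34772063, + strand: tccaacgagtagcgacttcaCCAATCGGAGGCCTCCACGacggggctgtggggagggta
Canx, endoplasmic reticulum stress element, chr11:50325780-50325838, - strand: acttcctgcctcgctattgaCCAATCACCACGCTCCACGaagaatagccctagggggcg
Calr, endoplasmic reticulum stress element on the opposite strand, chr8:84847055-84847113, - strand: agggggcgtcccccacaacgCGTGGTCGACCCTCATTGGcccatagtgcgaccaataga
Herpud1, element II, chr8:94386357-94386407, + strand: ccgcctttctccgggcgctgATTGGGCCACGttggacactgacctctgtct
Herpud1, amino acid response element on the opposite strand, chr8:94386297-94386344, + strand: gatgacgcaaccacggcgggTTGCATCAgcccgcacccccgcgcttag
Chac1, amino acid response element on the opposite strand, chr2:119351029-119351076, + strand: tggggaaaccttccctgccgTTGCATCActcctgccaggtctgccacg
Asns, amino acid response element, chr6:7693210-7693252, - strand: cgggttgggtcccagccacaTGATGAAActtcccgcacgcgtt

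Adipocyte markers were high on all 6 arrays, with a mean log2 signal over 12 of 16 listed genes of 13.92 to 14.31 in WT and 13.87 to 14.13 in Naa10-KO. Skeletal muscle markers differed with genotype. Over 27 of 28 listed genes their mean was 4.80 to 7.94 on the WT arrays and 10.75 to 10.99 on the Naa10-KO arrays. For 25 of the 27, against 10.0% of all genes, every Naa10-KO array was above every WT array. Some had a WT mean below the median of all probe sets, 5.86, but 0 of the 27 lay below it on all 6 arrays. Actn3, an actinin of fast fibres, had a signal of 4.16 ± 2.30 in WT and of 10.13 ± 0.46 in Naa10-KO (SD, n = 3). Acta1 was high in WT too, at 12.89 ± 0.58, and at 14.13 ± 0.31 in Naa10-KO (SD, n = 3). Brown and beige adipocyte markers were at 6.90 to 7.60 and 8.62 to 9.30, and fibroblast markers at 12.35 to 12.41 and 11.74 to 12.35. Immediate early genes, which mark acute stimulation or handling, were at 7.75 to 8.02 and 7.82 to 8.33. The Naa10-KO mean was higher for 7 of 10 brown and beige, 3 of 10 fibroblast and 12 of 15 immediate early genes. In that order, 5, 2 and 3 genes had every Naa10-KO array above every WT array. Every Naa10-KO array was below every WT array for 0, 4 and 1. Over all genes these shares were 10.0% above and 8.14% below. Naa10-KO replicate 1 had the lowest fibroblast level and a 3' minus 5' log2 signal of the Gapdh control probe sets of 0.55, against -0.27 to 0.01 on the other 5 arrays. The part of muscle RNA, cell makeup and RNA quality in the differences below was not tested. In such bulk tissue, fewer cells of a type and less RNA per cell cannot be told apart.

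No heat shock or unfolded protein response gene passed the test between genotypes. Levels are deposited log2 signals, differences are Naa10-KO minus WT on that scale, and the test was limma with Benjamini-Hochberg adjustment over all 18193 genes at a threshold of 0.05. Of the 38 measured members 0 were called higher and 0 lower. The array-wide background was 0.0879% of genes called higher and 0.0275% called lower, 0.115% in all. Adjusted p-values of the members lay between 0.494 and 0.988. At an unadjusted limma p under 0.05 the count was 4 of 38 (Chac1, Lonp1, Edem1 and Dnajb9), against 9.2% of all genes. That count depended on the fit, from 0 with a replicate block to 11 with trend and robust options (see the closing section). The members' median difference was 0.03, beside 0.01 for all genes, with 20 means higher and 18 lower in Naa10-KO.

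Differences were small as well as not called. The members ranged from -0.74 (Edem1) to 0.71 (Chac1), and the median size of a difference, ignoring its sign, was 0.17, against 0.20 for the 11359 genes whose mean reached the median of all probe sets, as that of all 38 members did. For 34 of the 38 members the 95% interval of limma lay wholly within 1 log2 unit on either side of 0, which is the size of a doubling or halving. Lonp1 (-1.05 to -0.08), Edem1 (-1.37 to -0.10), Chac1 (0.16 to 1.26) and Asns (-0.13 to 1.35) were the exceptions. Groups of 3 arrays did not overlap for 8 members, 5 higher in Naa10-KO (Chac1, Dnajb9, Herpud1, Clpp and Hspe1) and 3 lower (Edem1, Lonp1 and Hspb1). Over all genes 18.1% did not overlap, 10.0% higher and 8.14% lower, so the members' share of 21.1% was near that background.

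**Figure D1:**
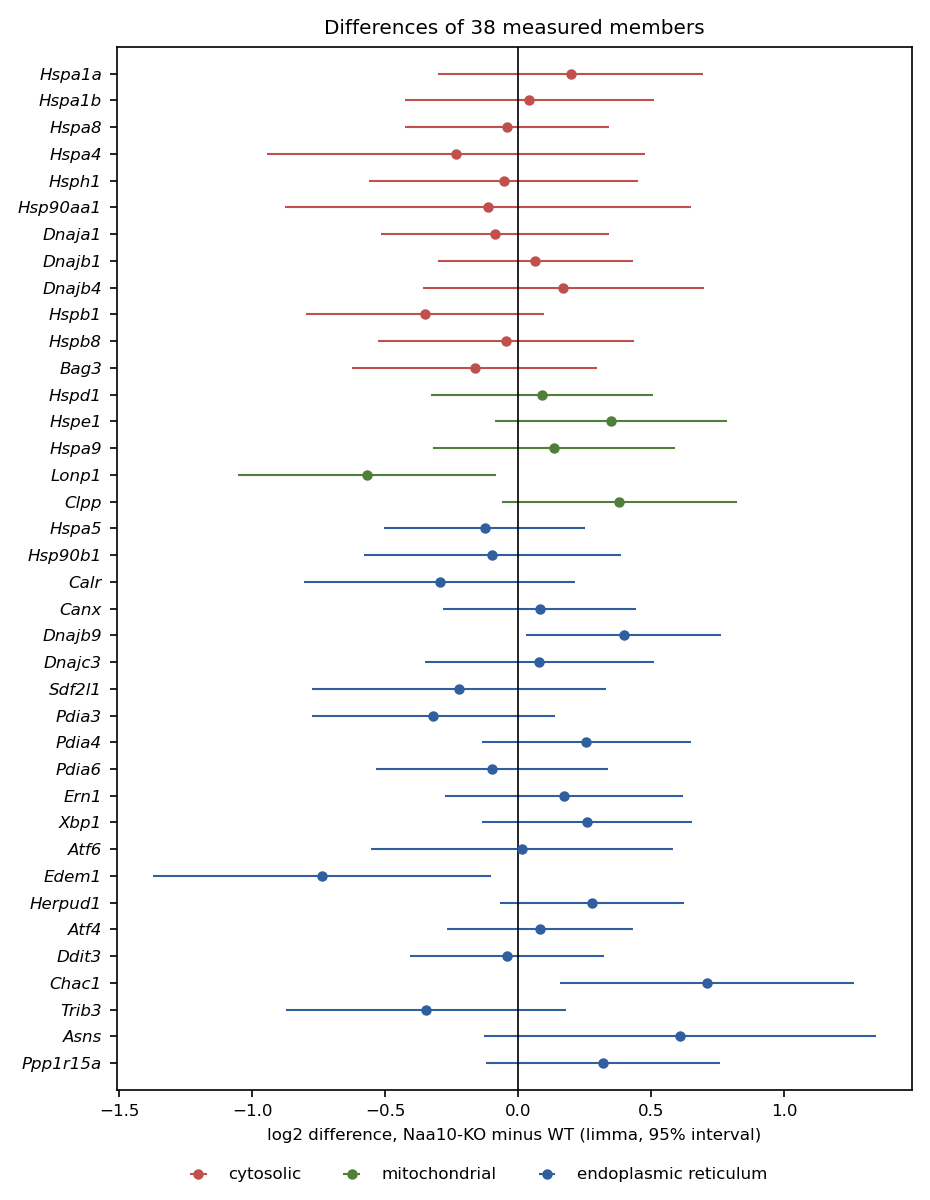
Log2 difference between Naa10-KO and WT (x axis, points) with limma's 95% interval (bars) for the 38 measured members, coloured by branch. The intervals of Chac1, Dnajb9, Lonp1 and Edem1 leave out 0, and 34 of 38 lie between -1 and 1.

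In the cytosolic branch 4 means were higher and 8 lower in Naa10-KO, with a median difference of -0.05 and 0 of 12 past the test. Hspa1a, a stress-inducible HSP70, was at 7.08, 6.85 and 6.61 on WT replicates 1 to 3 and at 7.02, 6.85 and 7.27 on Naa10-KO replicates 1 to 3. The groups overlapped, and the difference was 0.20 (SE 0.20, limma adjusted p = 0.764). Its twin Hspa1b was at 9.62, 9.21 and 9.66 in WT and at 9.39, 9.64 and 9.59 in Naa10-KO, a difference of 0.04 (SE 0.19). The promoter windows of the pair were identical at 296 of 300 positions, and as their transcripts are near copies, how far their probe sets tell them apart is uncertain. The second Hspa1b probe set, not the one used, differed by -0.05. The third, also not used, had WT at 7.53 ± 0.21 and Naa10-KO at 7.01 ± 0.06 (SD, n = 3; difference -0.52).

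Hspa8, the constitutive HSP70 of every cell, differed by -0.04 (interval -0.43 to 0.34). Hspa4 and Hsph1, the large relatives that reset HSP70 by nucleotide exchange, differed by -0.23 and -0.05, and the Hspa4 difference was -0.0019 without Naa10-KO replicate 3 and -0.39 without Naa10-KO replicate 1. Hsp90aa1, the inducible cytosolic HSP90, was at 13.39, 13.87 and 13.24 in WT and at 13.89, 13.25 and 13.02 in Naa10-KO. Its arrays spread more within each genotype than the means differed (-0.11, SE 0.30). The J-domain proteins that hand substrates to HSP70, Dnaja1, Dnajb1 and Dnajb4, differed by -0.09, 0.06 and 0.17. The second Dnajb1 probe set gave -0.30, with every Naa10-KO array below every WT array.

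Hspb1, a small heat shock protein that binds unfolding proteins and actin filaments, was at 12.32, 12.42 and 12.29 in WT and at 11.72, 12.22 and 12.05 in Naa10-KO. All 3 Naa10-KO arrays lay below all WT arrays, by 0.075 at the nearest pair. The difference of -0.35 (SE 0.18, limma adjusted p = 0.599) was seen on the second Hspb1 probe set too (-0.39), and without Naa10-KO replicate 1 it was -0.21. Hspb8, which works with Bag3 to send damaged proteins to autophagy, differed by -0.05, and by -0.39 and 0.15 on its other probe sets. Bag3 itself was at 8.99, 8.74 and 9.17 in WT and at 8.67, 8.99 and 8.75 in Naa10-KO, with overlapping groups and a difference of -0.16 (SE 0.18).

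Mitochondrial members were split. All 3 chaperone means were higher in Naa10-KO, Lonp1 was lower and Clpp was higher, for a branch median of 0.13 over 5 genes, with 0 past the test. Hspd1, the chaperonin HSP60, was at 12.98, 13.05 and 13.01 in WT and at 13.34, 13.06 and 12.90 in Naa10-KO. WT replicates were close together (SD 0.03), the Naa10-KO arrays lay on both sides of them, and the difference was 0.09 (SE 0.17). Hspe1, the HSP10 lid of that chaperonin, whose window holds the same heat shock elements, was at 12.79, 12.55 and 12.55 in WT and at 13.21, 12.92 and 12.80 in Naa10-KO. The groups were apart by only 0.015, and they overlapped with each array centred on its median. The difference of 0.35 (SE 0.17, limma adjusted p = 0.598) had the same sign on the gene's other probe set (0.46). Hspa9, the matrix HSP70 mortalin, differed by 0.13 (SE 0.18).

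The matrix proteases Lonp1 and Clpp, which both degrade misfolded and damaged protein, differed in opposite directions. Lonp1 was at 10.33, 10.41 and 10.64 in WT and at 9.70, 10.18 and 9.79 in Naa10-KO, so that every Naa10-KO array was lower. Its difference was -0.57 (SE 0.19, 1.48-fold, limma adjusted p = 0.506), and -0.47 without Naa10-KO replicate 1. Clpp, the proteolytic subunit of the ClpXP protease, was at 11.07, 10.95 and 11.08 in WT and at 11.69, 11.25 and 11.30 in Naa10-KO. Here every Naa10-KO array was higher, with a difference of 0.38 (SE 0.18, limma adjusted p = 0.581) on the probe set used and 0.44 on the other. Without Naa10-KO replicate 1, which was the highest, the Clpp difference was 0.24.

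**Figure D2:**
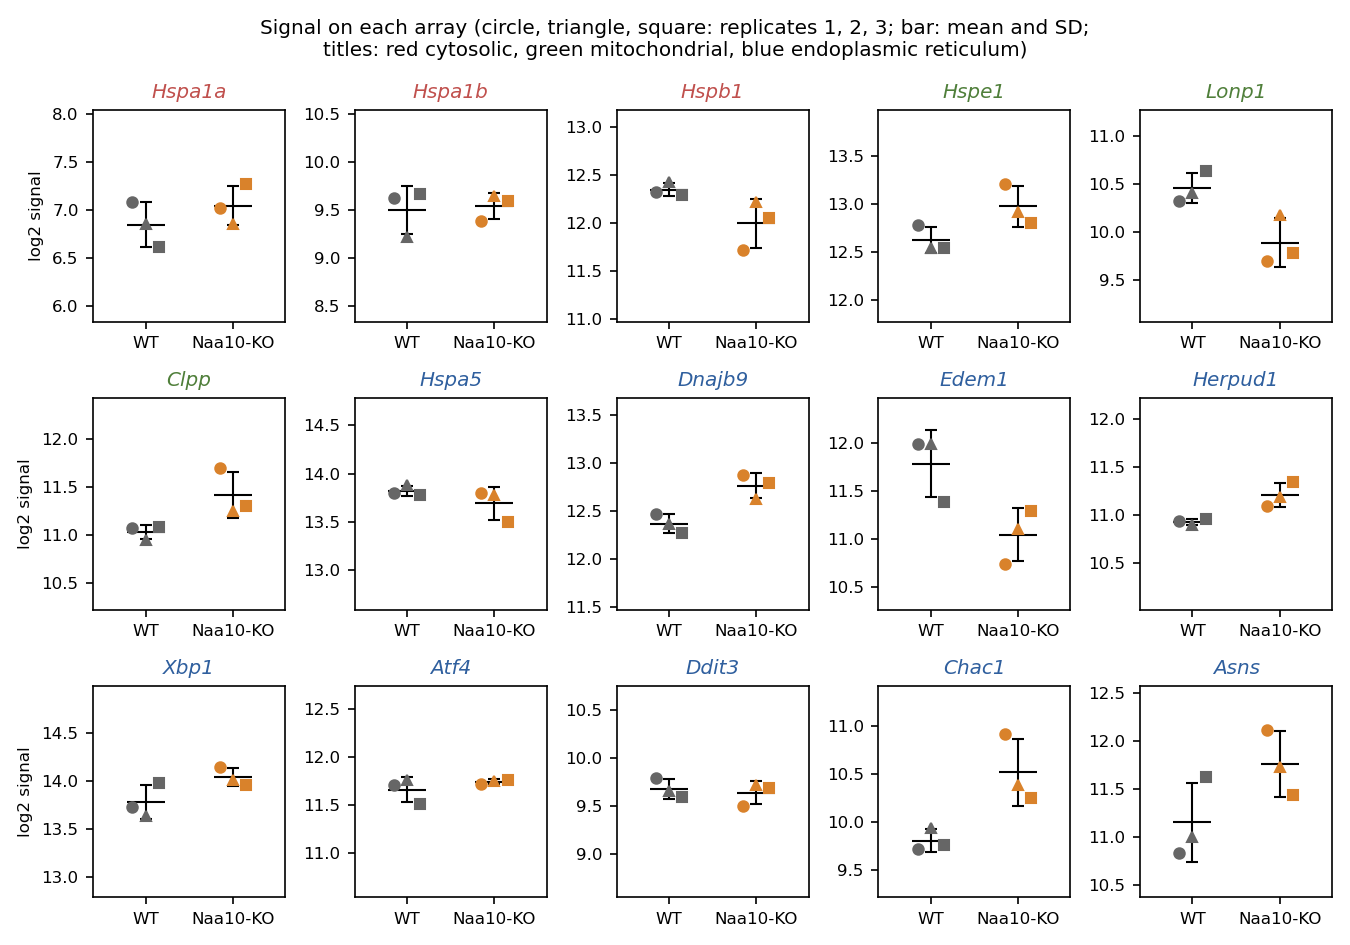
Deposited log2 signal (y axis, 2.2 log2 units in each panel) of 15 members on each WT (grey) and Naa10-KO (orange) array, with mean and SD bars over n = 3; marker shapes stand for replicates 1 to 3. Lonp1 and Edem1 lie lower and Chac1, Clpp and Dnajb9 higher on all Naa10-KO arrays, whereas Hspa1a, Hspa5, Atf4 and Ddit3 overlap.

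In the endoplasmic reticulum branch 12 means were higher and 9 lower, with a median of 0.08 and 0 of 21 past the test. Hspa5, the lumenal HSP70 known as BiP and the usual readout of the unfolded protein response, was at 13.79, 13.88 and 13.78 in WT and at 13.80, 13.78 and 13.49 in Naa10-KO. The groups overlapped, the difference was -0.13 (SE 0.15, limma adjusted p = 0.802), and the interval of -0.50 to 0.25 bounds a rise at well under a doubling. Hsp90b1, the lumenal HSP90, differed by -0.10. The lectin chaperones that hold glycoproteins, Calr and Canx, differed by -0.29 and 0.08, and Pdia3, the disulfide isomerase that works with them, by -0.32. Without Naa10-KO replicate 1 the Calr difference was -0.12. The other Calr probe sets gave -0.44 and -0.40, both with every Naa10-KO array below every WT array, as did a second Canx probe set at -0.33. Pdia4 and Pdia6 differed by 0.26 and -0.10, and with the mean of all probe sets, one of them below the median of all, Pdia4 differed by -0.59. The 6 members with the endoplasmic reticulum stress element in their window (Hspa5, Hsp90b1, Calr, Canx, Pdia6 and Dnajc3) lay between -0.29 and 0.08, 2 of them higher and 4 lower.

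Of the folding factors in this branch, Dnajb9, a BiP co-chaperone that also restrains IRE1α, was the one whose groups did not overlap. Its signal was 12.47, 12.36 and 12.27 in WT and at 12.88, 12.62 and 12.79 in Naa10-KO, a difference of 0.40 (SE 0.15, 1.32-fold, limma adjusted p = 0.531). Without Naa10-KO replicate 1 it was 0.34. The BiP partners Dnajc3 and Sdf2l1 differed by 0.08 and -0.22.

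Among the sensors and their factors, Xbp1, whose mRNA IRE1α splices, was at 13.73, 13.64 and 13.98 in WT and at 14.14, 14.01 and 13.97 in Naa10-KO. WT replicate 3 lay within the Naa10-KO range, and the difference was 0.26 (SE 0.16, limma adjusted p = 0.644). Of the other Xbp1 probe sets, a pair gave 0.54 and 0.44, each with the groups apart and Naa10-KO higher, and the remaining one gave -0.01. Spliced and unspliced Xbp1 were not analysed apart. Ern1 and Atf6 differed by 0.17 and 0.02. A second Ern1 probe set above the median of all probe sets gave 0.71, with every Naa10-KO array higher. A second such Atf6 probe set gave -0.16. With the mean of all probe sets, some of them below that median, Ern1 and Atf6 differed by -0.11 and -0.24.

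Factors of endoplasmic reticulum-associated degradation, which clears misfolded lumenal proteins, differed in opposite directions. Edem1, a lectin that extracts misfolded glycoproteins, was at 11.98, 11.99 and 11.38 in WT and at 10.74, 11.10 and 11.29 in Naa10-KO. Every Naa10-KO array was lower, by 0.092 at the nearest pair, and the difference of -0.74 (SE 0.25, 1.67-fold, limma adjusted p = 0.508) was the lowest of the members. The second Edem1 probe set gave -0.34, with overlapping groups. Herpud1, a membrane component of the degradation complex with both element II and the amino acid response element in its window, was at 10.93, 10.89 and 10.95 in WT and at 11.09, 11.19 and 11.34 in Naa10-KO. Its difference was 0.28 (SE 0.14, limma adjusted p = 0.595), whereas its other probe set gave -0.04.

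The integrated stress response, the arm that runs through ATF4, had 4 means higher and 2 lower in Naa10-KO. Atf4 was at 11.71, 11.76 and 11.51 in WT and at 11.71, 11.75 and 11.76 in Naa10-KO, nearly level (difference 0.08, SE 0.14). Ddit3, the factor CHOP of prolonged stress, was at 9.80, 9.65 and 9.59 in WT and at 9.50, 9.72 and 9.69 in Naa10-KO (difference -0.04, interval -0.41 to 0.32). ATF4 is controlled mainly at translation, which an RNA array does not measure.

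Chac1, an enzyme that degrades glutathione and a classical ATF4 target, had the highest difference and the smallest p of the 38 members. It was at 9.72, 9.94 and 9.76 in WT and at 10.92, 10.39 and 10.26 in Naa10-KO, with a gap of 0.31 between the groups. The difference was 0.71 (SE 0.22, 1.64-fold, limma adjusted p = 0.494), and 0.51 without Naa10-KO replicate 1, the highest array. Asns, asparagine synthetase, was at 10.83, 11.00 and 11.62 in WT and at 12.11, 11.73 and 11.43 in Naa10-KO, and its groups overlapped. Its difference of 0.61 (SE 0.29, limma adjusted p = 0.591) was matched on the second probe set (0.62) and was 0.43 without Naa10-KO replicate 1. Ppp1r15a, the phosphatase subunit GADD34 that ends the response, differed by 0.32. Trib3, a pseudokinase and another ATF4 target, went the other way at -0.35. The 4 members with the amino acid response element in their window (Chac1, Asns, Herpud1 and Trib3) thus ranged from -0.35 to 0.71.

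Other genes of the same pathways, listed by branch, were read from the same limma fit. The lists held 35 measured cytosolic, 38 endoplasmic reticulum, 29 integrated stress response and 17 mitochondrial partners. Of these, 0 were called higher and 0 lower, against 0.115% of all genes called. In that order, 3, 1, 4 and 1 had an unadjusted limma p under 0.05 (8.57%, 2.63%, 13.8% and 5.88%), against 9.2% of all genes. The 3 genes of each list with the smallest p are named. Among cytosolic partners, Hspb2, a small heat shock protein of muscle, had a signal of 9.93 ± 0.20 in WT and of 8.77 ± 0.35 in Naa10-KO (SD, n = 3; difference -1.17, limma adjusted p = 0.287), and with the trend and robust options of limma it passed (adjusted p = 0.0174). Hspb3, another muscle small heat shock protein, was at 3.23 ± 1.42 and 6.59 ± 0.38 (difference 3.36, limma adjusted p = 0.353), with every Naa10-KO array higher and all WT arrays below the median of all probe sets, 5.86. Skeletal muscle markers were higher on the same Naa10-KO arrays, and their part in either gene was not tested. Hspa14, a ribosome-bound HSP70, differed by -0.48, but by 0.00028 with the mean of all its probe sets.

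Partners of the integrated stress response had 9 means higher and 20 lower, with a median difference of -0.21, beside 0.20 for the 6 members of that arm. Eif2ak2, the kinase PKR, had a signal of 8.63 ± 0.03 in WT and of 7.73 ± 0.42 in Naa10-KO (SD, n = 3; difference -0.90, limma adjusted p = 0.457). Psph, the last enzyme of serine synthesis, differed by -0.51, and Aars, alanyl-tRNA synthetase, by -0.55, each with all Naa10-KO arrays lower. Among endoplasmic reticulum partners, Selenok, a selenoprotein of the membrane, differed by 0.40, Dnajb11, a BiP co-chaperone, by -0.34, and Os9, a lectin of the degradation complex, by -0.37. Among mitochondrial partners, Afg3l1 and Pmpcb, a protease subunit and a subunit of the peptidase that removes import signals, differed by -0.68 and -0.32, and Dnaja3, a J-domain protein of the matrix, by 0.24 (-0.22 with the mean of all its probe sets).

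Variation within a genotype was shared by many members, a pattern picked after the values were seen. In 12 of 38 members WT replicate 2 was the highest WT array, Naa10-KO replicate 1 the highest and replicate 3 the lowest Naa10-KO array, an order found in 6.68% of all genes. The 12 were Hspa4, Hsph1, Hsp90aa1 and Dnaja1 of the cytosol, Hspd1 and Hspa9 of mitochondria, and Hspa5, Hsp90b1, Dnajc3, Pdia6, Atf6 and Chac1. Over all members, WT replicate 2 was the highest WT array for 19, against 33.6% of all genes, and Naa10-KO replicate 3 the lowest Naa10-KO array for 19, against 32.8% of all genes. The inducible HSP70 genes Hspa1a and Hspa1b were not among them. Hspa1a was highest on Naa10-KO replicate 3, where Hsp90aa1 was at its lowest.

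**Figure D3:**
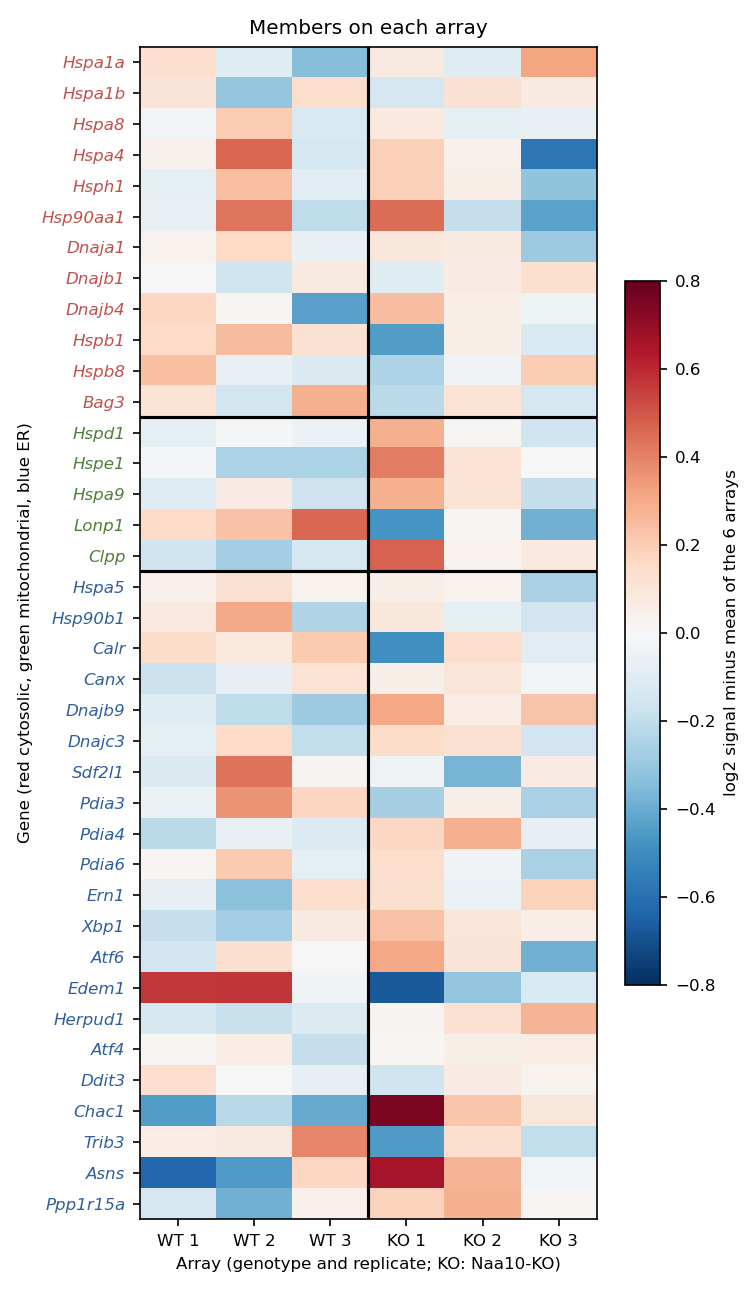
Log2 signal of each member (rows, grouped by branch) on each array (columns) minus the gene's mean over the 6 arrays, from blue (lower) to red (higher). Several chaperones are red on WT replicate 2 and Naa10-KO replicate 1 and blue on Naa10-KO replicate 3, and Chac1 and Asns are reddest on Naa10-KO replicate 1.

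Probe sets of one gene did not always give one direction. Of 27 members with more than 1 probe set at or above the median of all probe sets, 17 had the same sign on all of them and 10 had both signs, among them Hspa5, Xbp1, Herpud1, Canx and Hspa1b. Clpp, Hspe1, Hspb1, Edem1 and Asns were among the 17. Lonp1, Chac1 and Dnajb9 had 1 probe set each, so no second probe set bears on them. A low Hspa9 probe set, which was not the one used, had a signal of 4.76 ± 0.27 in WT and of 1.87 ± 0.77 in Naa10-KO (SD, n = 3), both below the median of all probe sets, whereas the other 4 differed by -0.10 to 0.13, and the mean of all 5 differed by -0.54.

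**Figure D4:**
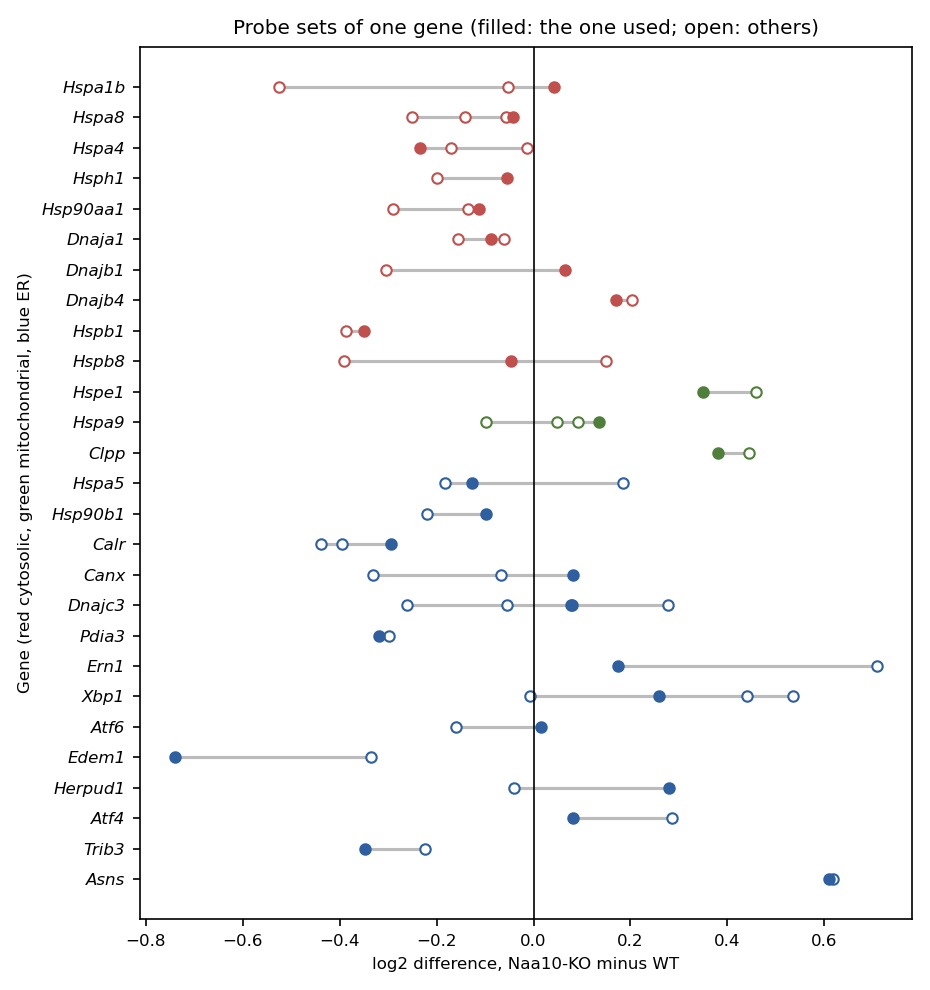
Log2 difference between Naa10-KO and WT (x axis) on each probe set at or above the median of all probe sets, for the 27 members with more than 1; filled circles are the probe sets used, open circles the others. Points of Clpp, Hspe1, Hspb1, Calr, Edem1 and Asns stay on 1 side of 0, whereas those of Hspa1b, Canx, Dnajc3 and Herpud1 fall on both.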

How the data were processed

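The authors deposited log2 signals of 45101 probe sets for 6 Affymetrix whole-genome mouse arrays, hybridised with biotin-labelled cRNA made from 3 µg of total RNA per the labels. On the linear scale every array had a mean of 500.0 after trimming 2% at each end, and the values were used as deposited. Their software was not given in the sources used here, and no detection calls were used.

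Probe sets were named through a platform annotation of GEO. Of those other than controls, 34945 had 1 gene, 932 several and 9160 none, and the last 2 kinds were not used. Entrez identifiers of 34741 matched RefSeq genes of GRCm38.p6 and changed 0 symbols. Genotype was fitted on 6 arrays with limma 3.58.1 in R 4.3.3 (lmFit, eBayes, 2-sided), with Benjamini-Hochberg adjustment over 18193 genes. The labels do not tie replicate numbers to a litter or day, so no block was used. On simulated data with 3 against 3 arrays and 18193 genes, the fit recovered 0% of genes changed by 0.5 log2 units. It recovered 7.4% at 1, 39.7% at 2 and 70.3% at 4, and called 4.1 unchanged genes per simulation. Changed genes were drawn from all genes (median SE 0.27), so these rates do not apply directly to the members (median SE 0.18).

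Members and lists were chosen with earlier results of these data known. Array values are printed for the 3 members of each branch with the smallest unadjusted p, for Hspa1a, Hspa1b, Hspd1, Hspa5, Xbp1, Ddit3 and Atf4 by name, and for members whose groups do not overlap. Hsp90aa1 and Asns were added after their values were seen, and partners are named by the 3 smallest p of each list. Alternatives were quantile normalization, median centring, a filter on or a floor for low values, other probe set rules, trend and robust options, array weights, a replicate block and each array left out.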

Additional observations from a re-analysis of the deposited data

How the results depend on the processing

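In limma, 0 members were called in either direction under all 15 alternatives, with a smallest adjusted p of 0.117 (Chac1 with trend and robust options). Over all genes, 16 were called higher and 5 lower. Higher calls numbered 70 with the filter on low values, 104 with low values raised to the median, 102 with trend and robust options, 27 with array weights and 0 with the mean of all probe sets. Lower calls numbered 13 with low values raised, 35 with trend and robust options, 3 with quantile normalization and 0 with the mean of all probe sets. With trend and robust options 1 cytosolic partner, Hspb2, was called lower. At an unadjusted limma p under 0.05 that fit had 11 of 38 members, against 2251 of 18193 genes. Low values raised to the median gave 7 members, against 1944 of 13264 genes. The filter on low values gave 6 members, against 1675 of 11359 genes. With the replicate block 0 genes were called higher and 0 lower (1276 genes and 0 members at an unadjusted limma p under 0.05). Deviations of same-numbered arrays had correlations over genes of -0.031 to -0.0057. With 3 arrays per genotype these values cannot decide whether mice shared a litter or day, which the labels do not state.

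With 1 array left out, higher calls ranged from 0 to 29 and lower calls from 0 to 1. Members that did not overlap numbered 5 to 11 higher and 3 to 6 lower in those fits, with 10 higher without WT replicate 3, 11 without Naa10-KO replicate 3 and 6 lower without Naa10-KO replicate 2. The share of all genes also grew with fewer arrays, to 17.1% and 16.7% higher without WT replicate 3 and without Naa10-KO replicate 3, and to 13.0% lower without Naa10-KO replicate 2. With all arrays kept, Hspe1 overlapped once arrays were centred on their medians and Herpud1 with the mean of all probe sets, whereas Chac1, Dnajb9, Clpp, Edem1, Lonp1 and Hspb1 did not overlap with quantile normalization or median centring. Filters, floors, weights, blocks and options of the test could not change the overlap of these members. With the mean of all probe sets 7 members were lower without overlap, and the median difference was -0.11 over all members and -0.10 in the endoplasmic reticulum branch, against 0.03 and 0.08; the cause was not tested. Without 1 array, medians ranged from -0.01 to 0.07 over all members, -0.11 to 0.02 in the cytosol, 0.02 to 0.26 in mitochondria and 0.0072 to 0.11 in the endoplasmic reticulum.

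Some members changed sign. With the mean of all probe sets these were Hspa1b (-0.18), Dnajb1 (-0.12), Hspa9 (-0.54), Canx (-0.10), Pdia4 (-0.59), Ern1 (-0.11) and Atf6 (-0.24), and without x_at and s_at probe sets Canx (-0.33). With 1 array left out, the ranges that crossed 0 were -0.10 to 0.12 for Hspa1b, -0.11 to 0.050 for Hspa8, -0.16 to 0.093 for Hsph1, -0.36 to 0.073 for Hsp90aa1, -0.16 to 0.037 for Dnaja1, -0.0040 to 0.29 for Dnajb4, -0.16 to 0.066 for Hspb8, -0.031 to 0.19 for Hspd1, -0.24 to 0.031 for Hsp90b1, -0.19 to 0.0071 for Pdia6, -0.13 to 0.21 for Atf6 and -0.086 to 0.026 for Ddit3. The cause of these changes was not tested. The other 26 members kept their sign in all 6 fits. Precision is limited by 3 arrays per genotype, with intervals of 0.35 to 0.76 log2 units on either side of a member's difference.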
